A study of Homo sapiens with 12 samples.

Results

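Integrins are the cell surface receptors, each made of 1 α and 1 β subunit, by which epithelial cells hold on to the extracellular matrix. The transcripts of 10 subunit genes were followed in SCC-15, an established human line of oral squamous cell carcinoma. The 10 genes were chosen by name as the subunits that stratified epithelium and carcinomas derived from it are known for: ITGA2, ITGA3, ITGA5, ITGA6 and ITGAV among the α subunits, and ITGB1, ITGB4, ITGB5, ITGB6 and ITGB8 among the β subunits. The choice was made with earlier results of these data known. These genes are 10 of the 61044 gene IDs measured, and all 10 passed the filter on low counts that left 17532 genes. Cells with a control short hairpin RNA (NC) were compared with cells carrying 1 of 3 hairpins against FMOD (shRNA1, shRNA2 and shRNA3), all SCC-15 and all collected at 48 hours. FMOD encodes fibromodulin, a small proteoglycan of the matrix, and the title of the study places it upstream of EGFR signalling. Each group had 3 libraries, 12 in all, of total RNA. The labels do not say whether the 3 libraries of a group came from separate cultures, whether each hairpin line was 1 clone, or what promoter drove the hairpins. P-values therefore measure only the spread between these libraries, which may be technical.

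The members fall into families by what they bind. α3β1, α6β1 and α6β4 bind laminins, and α6β4 anchors basal keratinocytes to the basement membrane through hemidesmosomes, whereas α2β1 binds collagens and α5β1 binds fibronectin. αv pairs with β5, β6 or β8, and also with β1 and β3. αvβ6 is an epithelial receptor, low in resting epithelium and high in wounds and many squamous carcinomas, that releases active TGF-β from its latent complex. αvβ8 also activates latent TGF-β, and αvβ5 binds vitronectin.

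The subunits of the αv family are where the results below turn, so the region upstream of the start of 3 of their genes is shown first. Each line is the stretch from 250 to 51 bases before the RefSeq start (GRCh38.p14), with CG dinucleotides in capitals. The stretches hold no annotated exon of the same gene, and exons of other genes were not checked. ITGB6 (chr2:160200323-160200522, minus strand) and ITGAV (chr2:186589806-186590005, plus strand) encode the subunits of αvβ6, and ITGB5 (chr3:124901469-124901668, minus strand) encodes the partner that moved the other way.
ITGB6: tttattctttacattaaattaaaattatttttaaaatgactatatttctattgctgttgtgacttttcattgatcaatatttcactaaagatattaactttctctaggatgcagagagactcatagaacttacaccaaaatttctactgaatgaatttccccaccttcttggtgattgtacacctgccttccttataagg
ITGAV: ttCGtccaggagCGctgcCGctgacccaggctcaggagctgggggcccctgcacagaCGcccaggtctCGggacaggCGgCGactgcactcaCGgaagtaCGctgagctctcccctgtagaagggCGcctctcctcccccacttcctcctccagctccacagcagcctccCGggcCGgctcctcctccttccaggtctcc
ITGB5: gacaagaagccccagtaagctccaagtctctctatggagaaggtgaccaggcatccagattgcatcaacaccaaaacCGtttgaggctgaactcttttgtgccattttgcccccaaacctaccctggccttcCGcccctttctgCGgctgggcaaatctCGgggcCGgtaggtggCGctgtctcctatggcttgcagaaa

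The ITGB6 stretch held 0 CG dinucleotides and 29.5% G and C. Of 27305 RefSeq promoters cut to the same bases, 9.03% held 0 CG dinucleotides, and the median promoter held 7. The ITGAV stretch held 12 CG dinucleotides and 69.0% G and C, and the ITGB5 stretch held 6 and 55.0%. Both strands were searched for 5 motifs. The AP-1 motif TGANTCA was contained in 5.35% of the promoters, the SP1 motif GGGCGG in 34.7% and the CCAAT box in 28.3%, while the TATA motif TATAAA was contained in 7.79% and the SMAD palindrome GTCTAGAC in 0.139%. A single SP1 match lay 119 bases before the ITGB5 start, and none of the 5 was found in the ITGB6 and ITGAV stretches. The ITGB8 stretch, which overlaps an annotated exon of that gene and is not shown, held 15 CG dinucleotides, 1 SP1 match and 1 CCAAT match. A promoter entry was found for 8 of the 10 members, all but ITGA3 and ITGB4.

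Library totals lay between 17286934 and 19567192 counts. FMOD itself was at the limit of detection, with 2, 2 and 3 counts in the NC libraries and 0 in the 9 shRNA libraries, so the knockdown could not be measured at this depth and no fold change is given. Levels are given as CPM, counts scaled to a common library total and by TMM. Over 27 pairs of an NC and an shRNA library, log2 CPM correlated at 0.773 to 0.795, whereas replicates of NC, shRNA1 and shRNA2 correlated at 0.977 to 0.989. Libraries 1 and 2 of shRNA3 stood apart from its library 3 (correlations of 0.911 and 0.908, against 0.987 between them) and had the lowest TMM scaling factors, 0.771 and 0.795. All 8 epithelial marker genes were read in every group, with sums of 3307 to 3554 CPM in NC and 4105 to 5613 CPM in the shRNA libraries. A list of 6 fibroblast markers summed to 15.9 to 17.9 CPM in NC and to 0.824 to 1.96 CPM in the shRNA libraries, with DCN and THY1 at 0 in NC. The 4 endothelial markers summed to 17.6 to 23.1 CPM in NC and to 3.88 to 13.3 CPM with the hairpins, where KDR was at 0. By the test described below, 1 of the 3 endothelial markers tested was higher and 2 were lower with all 3 hairpins. Of the 8 epithelial markers 4 were higher and 2 lower, and all 3 fibroblast markers tested were lower. The fibroblast list had 3 genes over 1 CPM in NC and 0, 1 and 0 with shRNA1, shRNA2 and shRNA3. Genes can pass the filter on NC counts alone, so the direction of those tested may have been set by the filter. Over all tested genes, 16% were higher and 19.7% lower with all 3 hairpins. Of 5 leukocyte markers 1 exceeded 1 CPM, and PTPRC, the common leukocyte antigen, was at 0 in NC but not in any hairpin group. The 5 summed to 53.9 to 72.3 CPM in NC and to 44.1 to 236 CPM in the shRNA libraries. The part of these marker differences in the integrin differences below was not tested, and in bulk RNA fewer cells of a type and less RNA per cell cannot be told apart.

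With all 3 hairpins ITGAV and its partners ITGB5, ITGB6 and ITGB8 were read differently from the control. ITGAV, ITGB6 and ITGB8 fell and ITGB5 rose, and outside the αv family ITGA2 rose. ITGB6 fell most, 34.7-fold with shRNA3 and further with the other hairpins, and ITGAV fell 3.63-fold to 4.49-fold. In the fit of all 12 libraries, ITGA6 and the further αv partner ITGB1 did not pass the test with any hairpin. ITGB3, which also pairs with αv, did not pass the filter.

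By edgeR's quasi-likelihood test (adjusted p under 0.05 over all tested genes), 7 members passed with shRNA1, 3 higher and 4 lower. Over all tested genes 57.4% passed in that comparison, 26.8% higher and 30.6% lower. With shRNA2 6 members passed, 2 higher and 4 lower, against 53% of all genes (24.6% higher, 28.4% lower). With shRNA3 7 passed, 4 higher and 3 lower, against 53.9% of all genes (26.4% higher, 27.6% lower). For the mean of the 3 hairpins 8 passed, 4 in each direction, against 60% of all genes (27.9% higher, 32.2% lower). With 10 members, these counts are near the shares of genes in general. In all 3 comparisons and in 1 direction, 5 members passed, against 35.7% of all genes: 2 higher (background 16%) and 3 lower (background 19.7%). The 3 comparisons share the NC libraries. The median log2 change of the members was -0.05, 0.37 and 0.33 for the 3 hairpins, beside -0.02, -0.05 and -0.03 over all genes. In 6 members every shRNA library lay beyond every NC library, against 44.8% of all genes: ITGA2, ITGA5 and ITGB5 higher (background 19%) and ITGAV, ITGB6 and ITGB8 lower (background 25.8%). Without shRNA3 libraries 1 and 2 the members called with shRNA1 and shRNA2 were 7 and 9, against 71.3% and 68.1% of the 19093 genes then tested. In that fit shRNA3 rested on its library 3 alone, so for shRNA3 only log2 changes are given from it.

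**Figure D1:**
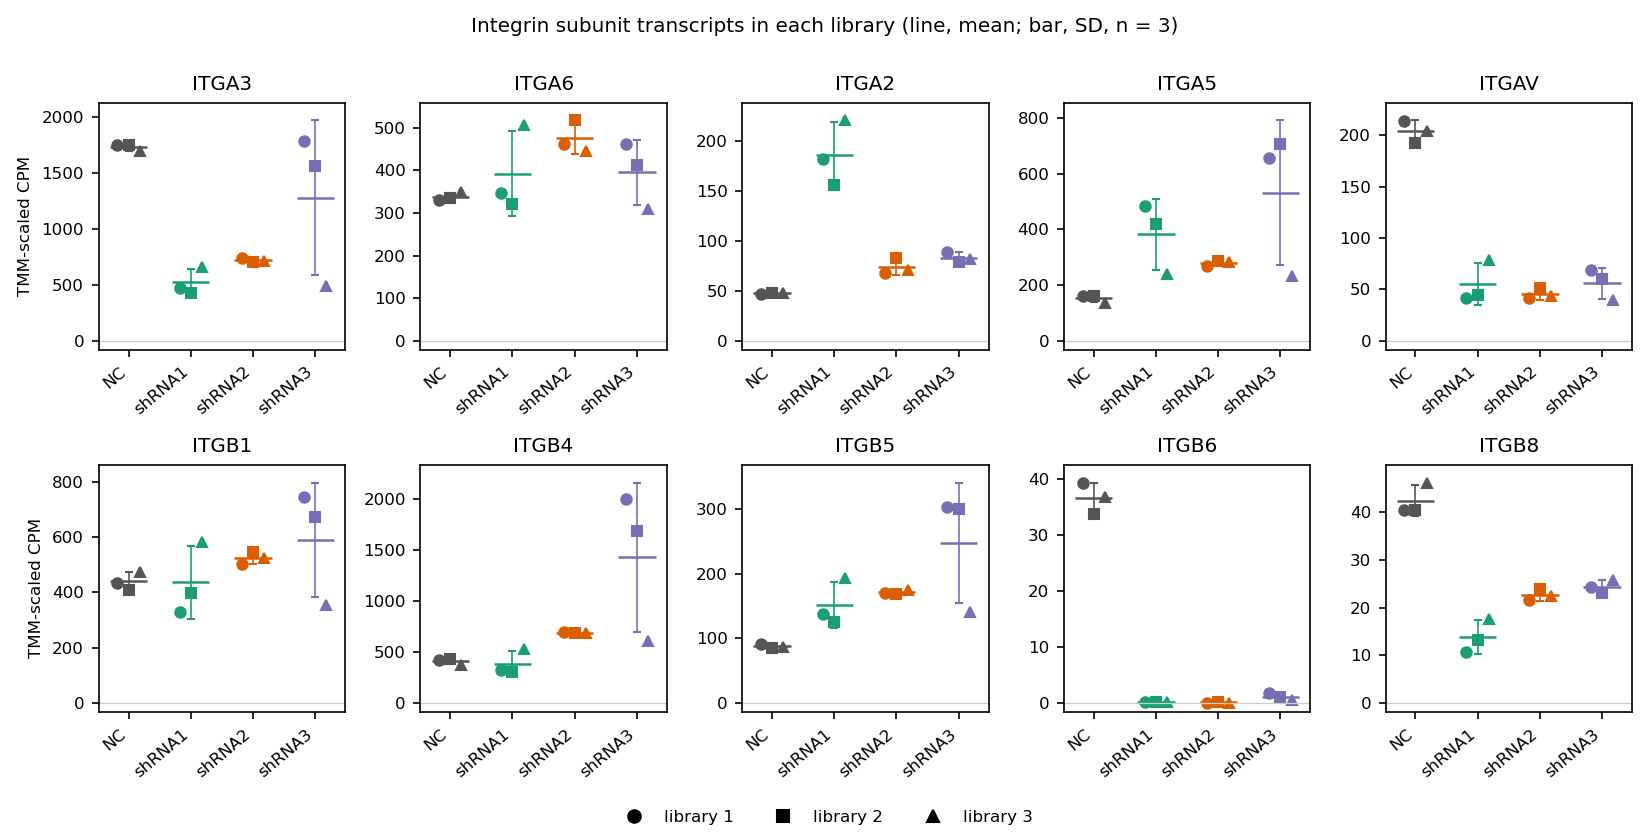
TMM-scaled CPM (y axis, from 0, a separate scale in each panel) of the 10 integrin subunit genes in the 3 libraries of NC, shRNA1, shRNA2 and shRNA3. Points are libraries, lines are means and bars are SD (n = 3); ITGAV, ITGB6 and ITGB8 lie lower with every hairpin, and library 3 of shRNA3 lies away from libraries 1 and 2 for ITGA3, ITGA5, ITGB4 and ITGB5.

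ITGB6 encodes β6, which pairs with αv alone, and lies on chromosome 2 at 160099666 to 160200313 (minus strand, GRCh38). In the NC libraries ITGB6 was read at 39.3, 33.8 and 36.8 CPM, from 687 to 779 counts. With shRNA1 it was read at 0.199, 0.145 and 0.155 CPM, from 4, 3 and 3 counts. With shRNA2 the counts were 0, 4 and 1, and with shRNA3 they were 23, 15 and 12, or 1.71, 1.09 and 0.596 CPM. Every shRNA library thus lay far under every NC library, and the ITGB6 transcript was near the counting limit with shRNA1 and shRNA2. The summed counts per scaled total were 220-fold lower with shRNA1 (95% interval from counting error alone, 120 to 460). They were 387-fold lower with shRNA2 (166 to 1194) and 34.7-fold lower with shRNA3 (26.2 to 46.9). The adjusted p from edgeR's quasi-likelihood test was 1.03e-06, 8.47e-07 and 6.01e-06. ITGB6 was the member with the largest change in all 3 comparisons.

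ITGAV encodes αv, the partner that β5, β6 and β8 share, and lies further along the same chromosome as ITGB6 (chromosome 2, 186590065 to 186680901, plus strand). Its level was 214, 193 and 205 CPM in NC, against 42.0, 44.2 and 78.6 CPM with shRNA1. With shRNA2 ITGAV was at 41.3, 51.8 and 43.4 CPM, and with shRNA3 at 68.7, 60.6 and 39.4 CPM. The groups did not overlap, the highest shRNA library standing at 78.6 CPM against 193 CPM in the lowest NC library. ITGAV fell 3.71-fold, 4.49-fold and 3.63-fold (log2 -1.89, -2.17 and -1.86, each SE 0.26, adjusted p 9.85e-05, 4.13e-05 and 0.000122 by edgeR's quasi-likelihood test). The 3 hairpins differed from each other by at most 0.30 in log2 for ITGAV, with an interval of -0.86 to 0.25 for shRNA2 against shRNA3.

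ITGB8 encodes β8, which also pairs with αv alone (chromosome 7, 20330702 to 20415754, plus strand). Its level was 40.5, 40.5 and 46.2 CPM in NC and 10.6, 13.1 and 17.6 CPM with shRNA1. With shRNA2 ITGB8 was at 21.5, 24.0 and 22.4 CPM and with shRNA3 at 24.4, 23.1 and 25.7 CPM. All 9 shRNA libraries lay under the NC libraries, and those of shRNA1 lay under the other 6. ITGB8 fell (log2 -1.62 with SE 0.19, -0.91 with SE 0.18 and -0.80 with SE 0.18), with adjusted p of 2.56e-05, 0.00141 and 0.00318 by the same test.

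ITGB5 encodes β5, the αv partner that binds vitronectin (chromosome 3, 124761948 to 124901418, minus strand), and it went the other way. ITGB5 was at 91.4, 85.1 and 86.2 CPM in NC, 137, 126 and 193 CPM with shRNA1, and 170, 169 and 174 CPM with shRNA2. With shRNA3 it was at 303, 300 and 141 CPM. Every shRNA library was above every NC library. ITGB5 rose by 0.79, 0.96 and 1.50 in log2 (each SE 0.26), with adjusted p of 0.0207, 0.00808 and 0.00055 by edgeR's quasi-likelihood test. With shRNA1 the call was lost when NC library 2 (adjusted p 0.0607), NC library 3 (0.0586) or shRNA1 library 3 (0.0851) was left out. With shRNA3 the rise was 0.72 when its libraries 1 and 2 were left out, a value from library 3 alone.

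Per kilobase of exon, the αv partners β5, β6 and β8 therefore stood in another proportion to each other. Of the summed β5, β6 and β8 transcripts per kilobase, β5 made up 56.1% ± 1.03 in NC, β6 32.3% ± 0.992 and β8 11.6% ± 0.985 (SD, n = 3). With shRNA1 the β5 share was 96.1% ± 0.508, with shRNA2 94.6% ± 0.405 and with shRNA3 94.9% ± 2.24. The β6 share was then 0.151% ± 0.0435, 0.0716% ± 0.0904 and 0.588% ± 0.136. For β8 the shares were 3.73% ± 0.528, 5.33% ± 0.315 and 4.53% ± 2.27. β1 and β3, which also pair with αv, were left out of these shares. ITGB1 was at 73.2 CPM per kilobase in NC and at 72.6, 87.4 and 98.3 with shRNA1, shRNA2 and shRNA3. ITGB5 was at 13.6, 23.5, 26.5 and 38.5 in the same order. The shares are of transcripts and not of receptors at the surface, which were not measured.

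**Figure D2:**
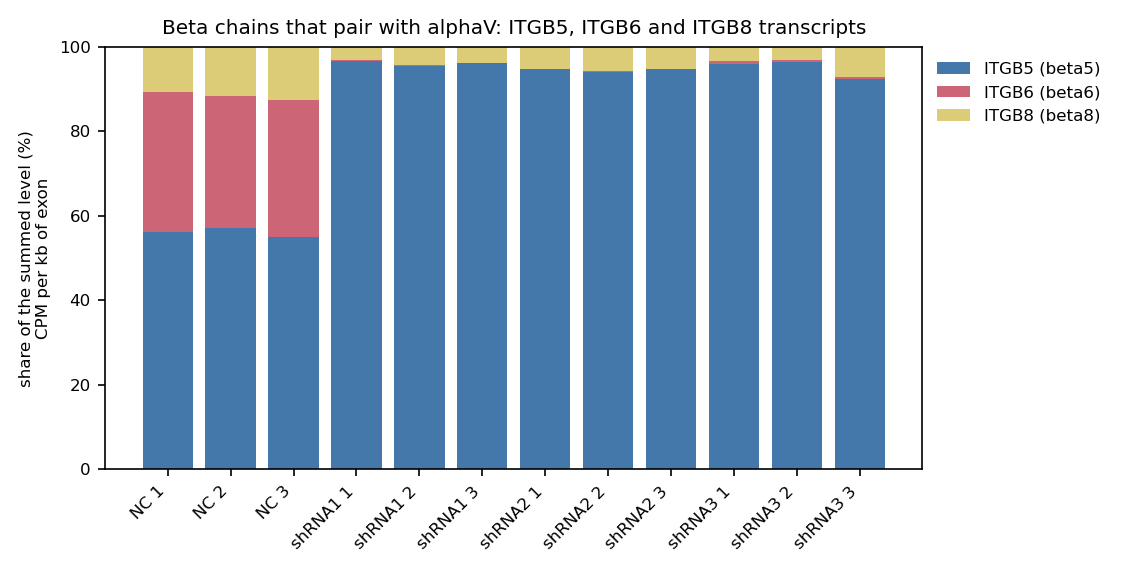
Share in percent (y axis) of ITGB5, ITGB6 and ITGB8 in the sum of the 3 transcripts per kilobase of exon in each of the 12 libraries (x axis). The ITGB6 share is 31.3% to 33.2% in the NC libraries and under 1% in the 9 shRNA libraries, where ITGB5 holds 92.3% to 96.6%.

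Among the laminin receptors, ITGA3 encodes α3, the partner of β1 (chromosome 17, 50055968 to 50090481, plus strand), and per kilobase it was the most abundant member in NC. Its level in NC was 177 CPM per kilobase, followed by ITGB1 at 73.2, ITGB4 at 60.5, ITGA6 at 51.7, ITGAV at 24.8, ITGA5 at 20.1, ITGB5 at 13.6, ITGB6 at 7.82, ITGA2 at 6.02 and ITGB8 at 2.80. ITGA3 was at 1754, 1747 and 1692 CPM in NC, 476, 430 and 662 CPM with shRNA1, and 742, 706 and 713 CPM with shRNA2. With shRNA3 it was at 1786 and 1559 CPM in libraries 1 and 2 and at 492 CPM in library 3. Only shRNA3 overlapped NC. ITGA3 fell by 1.73 (SE 0.37, adjusted p 0.00199) with shRNA1 and by 1.26 (SE 0.36, adjusted p 0.0122) with shRNA2 in log2, by edgeR's quasi-likelihood test. With shRNA3 the log2 difference was -0.44 with an interval of -1.23 to 0.35 (adjusted p 0.328). It was -1.78 without libraries 1 and 2 of shRNA3, from library 3 alone, and -0.87 (adjusted p 0.0248) with no scaling beyond library totals.

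ITGA6 encodes α6, the α subunit of the hemidesmosome integrin (chromosome 2, 172427354 to 172506282, plus strand). Its level was 329, 335 and 349 CPM in NC, between 322 and 506 CPM with shRNA1, 462, 517 and 445 CPM with shRNA2, and between 310 and 461 CPM with shRNA3. Only the shRNA2 libraries all lay above NC. The log2 differences were 0.22, 0.49 and 0.23 (each SE 0.19, adjusted p 0.361, 0.0504 and 0.346), so ITGA6 did not pass with any hairpin in the fit of all 12 libraries. The shRNA2 value of ITGA6 lay close to the threshold. It passed with no filter on low counts (adjusted p 0.0416), with only the shRNA2 and NC libraries (3.05e-06) and without shRNA3 libraries 1 and 2 (0.00717). It also passed when any 1 of these libraries was left out: shRNA1 library 2 (0.0414), shRNA1 library 3 (0.0178), shRNA3 library 1 (0.0393), shRNA3 library 2 (0.0499) and shRNA3 library 3 (0.00492). With shRNA3 ITGA6 passed only without library 3 of that hairpin, among the alternatives run (0.37, adjusted p 0.0423). The 95% intervals ran from -0.21 to 0.64 for shRNA1, 0.07 to 0.92 for shRNA2 and -0.20 to 0.65 for shRNA3.

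ITGB4 encodes β4, which pairs with α6 alone and whose long cytoplasmic tail binds plectin (chromosome 17, 75721328 to 75757818, plus strand). It was at 417, 433 and 376 CPM in NC and at 323, 301 and 530 CPM with shRNA1. With shRNA2 ITGB4 was at 693, 687 and 681 CPM, and with shRNA3 at 2000, 1685 and 606 CPM. The shRNA2 and shRNA3 libraries all lay above NC, and those of shRNA1 fell on both sides of it. In log2 the differences were -0.09 (SE 0.35, adjusted p 0.849), 0.75 (SE 0.36, adjusted p 0.0976) and 1.81 (SE 0.36, adjusted p 0.0015), so only shRNA3 passed. With shRNA2 ITGB4 passed without shRNA3 libraries 1 and 2 (0.77, adjusted p 0.00211), without shRNA3 library 3 (0.76, adjusted p 0.00171) and with only the shRNA2 and NC libraries (0.75, adjusted p 1.26e-08). The difference between shRNA1 and shRNA3 was itself past the threshold (-1.89, adjusted p 0.0068). Without libraries 1 and 2 of shRNA3, that pair gave -0.67 and shRNA3 against NC gave 0.60, with shRNA3 resting on library 3 alone. The mean of the 3 hairpins was 0.82 (adjusted p 0.0351). This call was lost with no scaling (adjusted p 0.0502), without NC libraries 1, 2 or 3 (0.0902, 0.083 and 0.117) and without shRNA1 library 3 (0.0542). Of the summed β1 and β4 transcripts per kilobase, β4 made up 45.3% ± 3.61 in NC, 43.9% ± 3.29 with shRNA1, 53.8% ± 1.14 with shRNA2 and 66.6% ± 5.55 with shRNA3 (SD, n = 3).

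The 7 hemidesmosome partners, matrix, plaque and membrane proteins that meet α6β4, were all tested. With shRNA1 1 was higher and 1 lower, with shRNA2 2 and 2, and with shRNA3 4 and 0, with median log2 changes of 0.18, 0.41 and 0.68. Over all tested genes, 26.8%, 24.6% and 26.4% were higher and 30.6%, 28.4% and 27.6% lower with the 3 hairpins, with medians of -0.02, -0.05 and -0.03, which also hold for the lists that follow. These shares are from the fit of all 12 libraries. Without shRNA3 libraries 1 and 2, a larger share of all genes passed with shRNA1 and shRNA2, as given above. The list counts without those libraries, here and below, are for shRNA1 and shRNA2 and are to be read beside that larger share. Only PLEC, the gene of plectin, which ties β4 to keratins, rose with all 3 hairpins. It was at 760, 812 and 662 CPM in NC and between 1742 and 3116 CPM in the 9 shRNA libraries, which did not overlap NC (log2 1.95, 1.24 and 1.47, adjusted p 3.36e-06, 8.22e-05 and 2.46e-05 by edgeR's quasi-likelihood test). LAMB3, the β3 chain of laminin-332, was at 1827 ± 194 CPM in NC, 968 ± 97.4 with shRNA1, 603 ± 6.72 with shRNA2 and 2382 ± 1225 with shRNA3 (SD, n = 3), and it fell with shRNA1 and shRNA2. COL17A1, a transmembrane collagen of hemidesmosomes, rose with shRNA2 (0.69, adjusted p 0.0341) and shRNA3 (0.95, adjusted p 0.00668). LAMA3 (1.09) and CD151 (0.68), a tetraspanin bound to α3β1 and α6β4, rose with shRNA3. Without shRNA3 libraries 1 and 2, the counts were 2 and 2 with shRNA1 and 4 and 2 with shRNA2. Library 3 of shRNA3 held COL17A1 at 348 CPM (297 to 358 in NC), CD151 at 220 CPM (198 to 237 in NC) and LAMA3 at 103 CPM (84.7 to 98.4 in NC).

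**Figure D3:**
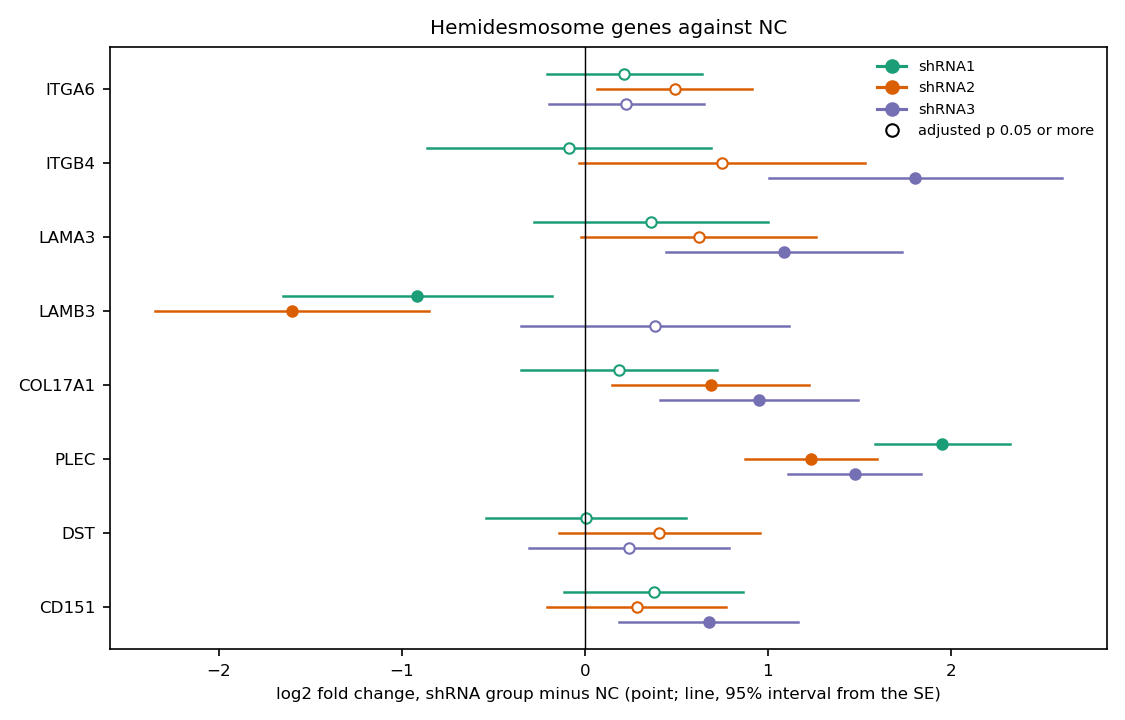
Log2 fold change against NC (x axis, with 95% intervals) of ITGA6, ITGB4 and 6 hemidesmosome partner genes for each hairpin; open points did not pass. PLEC lies to the right of 0 with all 3 hairpins, while LAMB3 lies to the left with shRNA1 and shRNA2.

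ITGA2 encodes α2 of the collagen receptor α2β1 (chromosome 5, 52989326 to 53094779, plus strand). Its level was 47.3, 47.9 and 47.8 CPM in NC and 182, 156 and 221 CPM with shRNA1. With shRNA2 it was at 67.9, 83.4 and 71.1 CPM and with shRNA3 at 89.3, 78.7 and 82.1 CPM. All 9 libraries lay above NC, and the 3 of shRNA1 lay above the other 6. ITGA2 rose by 1.97 (SE 0.15, adjusted p 1.35e-06), 0.64 (SE 0.14, adjusted p 0.00289) and 0.81 (SE 0.14, adjusted p 0.000628) in log2 by edgeR's quasi-likelihood test. With no scaling beyond library totals the shRNA3 value was 0.47 (adjusted p 0.0317). In contrast to ITGA3, ITGA5 and ITGB4, the shRNA3 libraries held ITGA2 at nearly 1 level.

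ITGA5 encodes α5 of the fibronectin receptor α5β1 (chromosome 12, 54395261 to 54419460, minus strand). It was at 161, 160 and 137 CPM in NC, 486, 420 and 242 CPM with shRNA1, 271, 287 and 284 CPM with shRNA2, and 655, 707 and 233 CPM with shRNA3. Every shRNA library lay above NC. ITGA5 rose by 1.33 with shRNA1 (SE 0.36, adjusted p 0.00811) and by 1.80 with shRNA3 (SE 0.36, adjusted p 0.0015). With shRNA2 the value of 0.88 missed the threshold (SE 0.36, interval 0.10 to 1.66, adjusted p 0.0565). It passed by the DESeq2 Wald test (adjusted p 0.0481), and by edgeR's quasi-likelihood test with only the shRNA2 and NC libraries (4.04e-09). By edgeR's test it also passed without shRNA1 library 3 (0.0434), shRNA3 library 2 (0.0419) or shRNA3 library 3 (0.00146). Without libraries 1 and 2 of shRNA3 the shRNA3 value, from library 3 alone, was 0.64. The shRNA2 value of 0.90 then passed (adjusted p 0.00204).

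ITGB1 encodes β1, the common partner of α2, α3, α5 and α6 (chromosome 10, 32900319 to 33005792, minus strand). It was at 434, 410 and 475 CPM in NC, 329, 398 and 582 CPM with shRNA1, 504, 548 and 524 CPM with shRNA2, and 744, 672 and 356 CPM with shRNA3. NC lay inside the range of shRNA1 and of shRNA3. The log2 differences were -0.01, 0.26 and 0.43 (each SE 0.26, adjusted p 0.973, 0.44 and 0.196). The 95% intervals ran from -0.59 to 0.57, -0.32 to 0.84 and -0.15 to 1.01, so a difference of up to 1.01 in log2 was not excluded for shRNA3. By edgeR's test ITGB1 passed for shRNA2 with only the shRNA2 and NC libraries (0.26, adjusted p 0.00192). Without shRNA3 library 3 it passed for shRNA3 (0.68, adjusted p 0.00347) and for the mean of the hairpins (0.32, adjusted p 0.0488). Without shRNA3 libraries 1 and 2 the shRNA3 value was -0.28, from library 3 alone. ITGB1 has a pseudogene, ITGB1P1, read at up to 268 counts, whose reads could be mixed with its own. Over α2, α3, α5 and α6 together per kilobase, α3 made up 69.4% ± 0.369 in NC and 28.3% ± 4.10, 38.2% ± 1.88 and 45.7% ± 8.37 with shRNA1, shRNA2 and shRNA3, and α5 made up 7.91% ± 0.604 in NC and 27.5% ± 10.3, 19.2% ± 0.657 and 25.2% ± 3.29 (SD, n = 3).

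**Figure D4:**
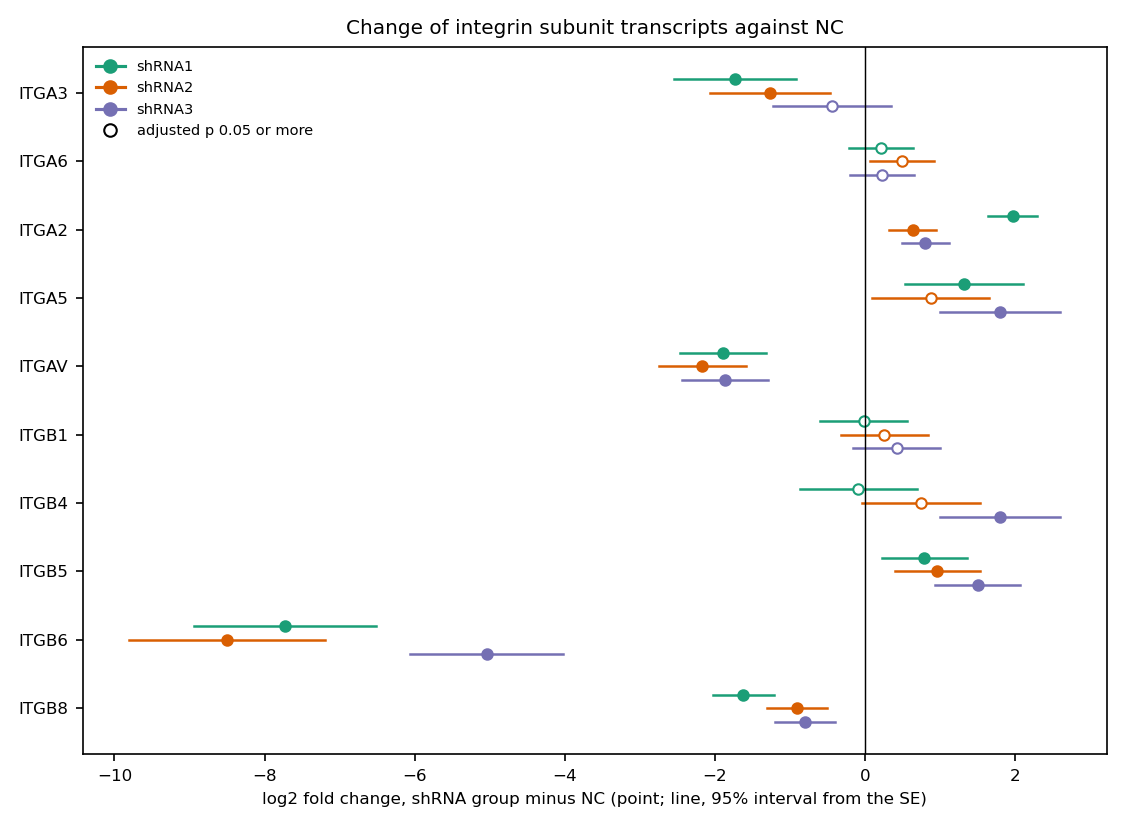
Log2 fold change against NC (x axis) of the 10 integrin genes with 95% intervals, 1 colour per hairpin. ITGB6, ITGAV and ITGB8 lie left of 0 and ITGA2 and ITGB5 right of 0 for all 3 hairpins, and the intervals of ITGB1 include 0 for all 3.

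The hairpins were also compared with each other. Between shRNA1 and shRNA2, 2 members differed, 1 higher and 1 lower, against 12.3% of all genes (5.78% higher, 6.53% lower). Between shRNA1 and shRNA3 5 differed, 1 higher and 4 lower with shRNA1, against 30% of all genes (11.9% and 18.1%). Between shRNA2 and shRNA3 1 differed, lower with shRNA2, against 8.34% of all genes (1.91% higher, 6.43% lower). ITGA2 was higher with shRNA1 than with shRNA2 (1.33, adjusted p 0.000697) and shRNA3 (1.16, adjusted p 0.0021), and ITGB8 was lower with shRNA1 than with either (-0.71, adjusted p 0.0287, and -0.82, adjusted p 0.0107, all by edgeR's quasi-likelihood test). ITGB6 was lower with shRNA1 (-2.69, adjusted p 0.00891) and shRNA2 (-3.46, adjusted p 0.0266) than with shRNA3. ITGA3 was lower with shRNA1 than with shRNA3 (-1.29, adjusted p 0.0243). Without libraries 1 and 2 of shRNA3, 4 members differed between shRNA1 and shRNA2, and pairs with shRNA3 rested on its library 3 alone. The ITGB6 pairs then gave -1.82 and -2.59, and the ITGA3 pair 0.07. The differences of ITGA2 and ITGB8 between shRNA1 and shRNA2 stayed past the threshold. Those between shRNA1 and shRNA3 were 1.17 and -0.91. The ITGB8 difference between shRNA1 and shRNA2 was lost with no scaling (adjusted p 0.0775), with no filter (0.0688) and without any 1 of NC library 1 or 2, shRNA1 library 1 or 2 or the 3 shRNA2 libraries (0.0502 to 0.113). Between shRNA1 and shRNA3 the ITGB8 difference was lost with no scaling (0.0752). The ITGB6 difference between shRNA2 and shRNA3 was lost without any 1 of the NC libraries (0.0531 to 0.0553), the shRNA2 libraries (0.083 to 0.128) or shRNA3 libraries 1 and 2 (0.0913 and 0.0884), at log2 values of -2.92 to -4.98. The ITGA3 difference was lost without any 1 of libraries 1 and 2 of shRNA1 or of shRNA3 (0.0808 to 0.0934). With only the 2 groups of a pair fitted, all 5 differences between shRNA1 and shRNA3 and that of ITGB6 between shRNA2 and shRNA3 were lost (0.117 to 0.206).

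The split inside shRNA3 touched the members unequally. The mean of libraries 1 and 2 was 3.40 times library 3 for ITGA3, 3.04 times for ITGB4, 2.92 times for ITGA5, 2.35 times for ITGB6 and 2.14 times for ITGB5. For ITGB1, ITGAV and ITGA6 the ratio was 1.99, 1.64 and 1.41. ITGA2 (1.02) and ITGB8 (0.925) were level across the 3 libraries.

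Of the 16 other integrin genes 9 passed the filter, and 0 rose while 3 fell with all 3 hairpins, the 3 being ITGA4, ITGA7 and ITGAM, against 16% and 19.7% of all genes. ITGA4, at 0 counts in every shRNA library, and ITGA7, at 3 to 11, passed the filter on their NC counts. They could enter the test only as genes higher in NC, so the count of falling genes is no measure against that share. With shRNA1 2 rose and 6 fell, with shRNA2 1 and 4, and with shRNA3 1 and 3, with median log2 changes of -1.58, -1.25 and -0.69. The shares over all genes were 26.8%, 24.6% and 26.4% higher and 30.6%, 28.4% and 27.6% lower in the fit of all 12 libraries. Without shRNA3 libraries 1 and 2, when 12 of the genes passed the filter, the counts were 3 and 6 with shRNA1 and 3 and 6 with shRNA2. ITGA4, the α4 subunit that binds VCAM1 and fibronectin and whose gene lies between ITGA6 and ITGAV on chromosome 2 (181457202 to 181536187), was at 13.4, 13.9 and 14.5 CPM in NC and at 0 counts in all 9 shRNA libraries. Against a floor of 3 counts per library it was at least 93.1-fold, 81.9-fold and 70.9-fold lower (adjusted p 3.86e-05, 4.31e-05 and 4.85e-05). ITGA7, a laminin receptor subunit of muscle, stood at 4.70 ± 0.118 CPM in NC against 0.265 ± 0.123, 0.378 ± 0.213 and 0.271 ± 0.0419 CPM with the hairpins (SD, n = 3), which is 17.6-fold, 12.4-fold and 17.1-fold lower by summed counts. ITGAM, a myeloid subunit, was low throughout, at 1.46 ± 0.416 CPM in NC and 0.586, 0.607 and 0.518 CPM with the hairpins. ITGAX, a myeloid α subunit, fell with shRNA1 (log2 -2.96, adjusted p 0.000607) and shRNA2 (-2.19, adjusted p 0.00363), and gave -0.69 (adjusted p 0.249) with shRNA3. ITGAE, which binds E-cadherin with β7, rose with shRNA1 (0.73) and shRNA2 (0.46), and ITGB2, the leukocyte β2 subunit, rose with shRNA1 (1.60) and shRNA3 (1.82). ITGA2B and ITGA11 fell with shRNA1 (-1.58 and -1.93), and ITGA1 did not pass with any hairpin (-0.58, -0.77 and 0.75). ITGB3, another αv partner, did not pass the filter, with 38 counts over the 3 NC libraries and 12, 9 and 4 with the hairpins. The fibroblast and endothelial marker sums given above were also lower in all 9 shRNA libraries than in NC, and their part in these differences was not tested.

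The 23 genes that activate integrins or link them to actin were all tested. With shRNA1 9 were higher and 1 lower, with shRNA2 10 and 3, and with shRNA3 11 and 2, with median log2 changes of 0.37, 0.37 and 0.40, and 6 rose and 1 fell with all 3, against 16% and 19.7% of all genes. The counts were 13 and 6 with shRNA1 and 11 and 3 with shRNA2 without shRNA3 libraries 1 and 2. Among the 23, TLN2, talin-2, which binds β tails and activates integrins, rose from 6.48 ± 0.551 CPM to 18.5 ± 1.90, 25.8 ± 1.15 and 25.4 ± 3.01 CPM (SD, n = 3). TNS4, a tensin that binds the β1 tail, rose by 1.91, 1.60 and 2.41 in log2 (adjusted p 4.41e-05, 0.000157 and 1.02e-05 by edgeR's quasi-likelihood test). TNS1, a tensin that also links integrins to actin, fell (log2 -3.82, -4.09 and -3.93, adjusted p 9.22e-06, 6.75e-06 and 9.14e-06), from 24.7, 18.3 and 21.2 CPM in NC to between 0.895 and 2.37 CPM. TLN1, talin-1, was more abundant, at 317 ± 50.2 CPM in NC, and did not pass (-0.42, 0.31 and 0.17).

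The matrix ligands of these receptors went in both directions. Of 13 tested, 1 was higher and 5 lower with shRNA1, 3 and 5 with shRNA2, and 5 and 4 with shRNA3, with median log2 changes of -0.43, 0.10 and 0.57. With all 3 hairpins 1 rose and 3 fell (16% and 19.7% of all genes). Without shRNA3 libraries 1 and 2 the counts were 3 and 6 with shRNA1 and 5 and 6 with shRNA2. TNC, the gene of tenascin-C, a ligand of several αv integrins, was at 548, 450 and 415 CPM in NC and between 27.0 and 95.3 CPM in the shRNA libraries (log2 -3.16, -2.67 and -3.49, adjusted p 7.74e-05, 0.000234 and 4.6e-05). CCN2, a matricellular ligand, fell from 71.8 ± 8.33 CPM to 4.79 ± 1.39, 0.760 ± 0.218 and 6.61 ± 5.16 CPM (SD, n = 3). VTN, vitronectin, the ligand of αvβ5, was called higher with all 3 hairpins (adjusted p 0.000771, 0.000406 and 0.000219) from 0, 3 and 1 counts in NC to between 13 and 45 counts, a level of at most 2.23 CPM. VTN passed the filter on its counts in the shRNA libraries. FN1, fibronectin, stood at 155 ± 16.7 CPM in NC against 234 ± 111, 30.3 ± 2.88 and 75.4 ± 30.8 CPM with the hairpins (SD, n = 3), and it fell with shRNA2 (-2.35) and shRNA3 (-1.04).

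The list of TGF-β ligands and of proteins that bind their latent complexes was tested for 7 of its 8 genes. With shRNA1 1 was higher and 3 lower, with shRNA2 2 and 2, and with shRNA3 3 and 2, with median log2 changes of -0.80, 0.37 and 0.77. For all 3 hairpins 1 was higher and 2 lower (16% and 19.7% of all genes). With shRNA3 libraries 1 and 2 left out, the counts were 2 and 3 with shRNA1 and 3 and 2 with shRNA2. TGFB2 was at 80.7, 43.2 and 55.4 CPM in NC, at 1.59, 2.33 and 1.24 CPM with shRNA1, and at 0 to 2 counts in each library of shRNA2 and shRNA3 (adjusted p 3.47e-06, 4.41e-07 and 4.78e-07). LRRC32, which holds latent TGF-β at the cell surface, was at 14 to 26 counts in NC and at 0 to 2 counts in the shRNA libraries, so it passed the filter on its NC counts. LTBP3, a latent TGF-β binding protein, rose by 0.91, 1.61 and 2.64 (adjusted p 0.0322, 0.0017 and 7.44e-05). TGFB1, the main ligand that αvβ6 frees, was at 76.1 ± 3.17 CPM in NC and 106 ± 11.8, 140 ± 5.59 and 329 ± 198 CPM with the hairpins (SD, n = 3), and passed with shRNA3 (2.11, adjusted p 0.00121).

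Of 5 membrane partners, the tetraspanins and CD98, 1 was higher and 3 lower with shRNA1, 1 and 1 with shRNA2, and 2 and 1 with shRNA3, with median log2 changes of -0.48, 0.17 and 0.61, and 1 rose and 1 fell with all 3 (16% and 19.7% of all genes). CD63, a tetraspanin of endosomes, rose from 213 ± 7.04 CPM to 481 ± 67.3, 393 ± 13.4 and 550 ± 175 CPM, and CD82, a tetraspanin that binds several integrins, fell from 142 ± 3.97 CPM to 34.0 ± 4.75, 38.4 ± 2.34 and 50.2 ± 17.6 CPM (SD, n = 3). Without shRNA3 libraries 1 and 2 this list gave 1 higher and 3 lower with shRNA1, and 1 and 2 with shRNA2.

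For each member the gene outside the group whose log2 CPM followed it most closely over the 12 libraries is given as a description, since the libraries share the NC and shRNA division. These were ADARB1 for ITGA2 (Pearson r 0.976), RAB1B for ITGA3 (0.992), BIK for ITGA5 (0.990), PTPRG for ITGA6 (0.944) and LINC02577 for ITGAV (0.990). For the β subunits they were ENSA for ITGB1 (0.948), GNA15 for ITGB5 (0.989), MFSD14CP for ITGB6 (0.986) and NREP for ITGB8 (0.977). For ITGB4 it was a gene listed by its ID alone (0.990).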

How the data were processed

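Total RNA of SCC-15 cells was sequenced from NEBNext Ultra libraries, per the labels' protocols. The authors deposited 1 table of estimated counts per gene, in which 13.8% of values were not whole (tolerance 1e-09). The submitters' processing notes name HISAT2, HTSeq 0.11.2 and GRCh38, and give no annotation or strand setting. Without a strand setting, reads of antisense genes cannot be told apart, but the genes whose exons overlap a member's had at most 130 counts. IDs not from Ensembl took 0.0864% to 0.220% of a library. They were not removed from the totals or before the filter and tests.

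Estimated counts were rounded, scaled by TMM (0.771 to 1.11) and filtered with filterByExpr (minimum count 10, minimum total 15), which left 17532 genes. All 12 libraries entered 1 model of 4 groups with edgeR 4.0.16 in R 4.3.3 (quasi-likelihood F test, robust, two-sided, 8 residual degrees of freedom, common biological coefficient of variation 0.289), with Benjamini-Hochberg adjustment over all genes and a threshold of 0.05. SE is the log2 change divided by the square root of F. Levels per kilobase used GENCODE 29 exon length. Count ratios have exact 95% intervals, which cover counting error only. No replicate pair agreed within sampling noise.

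The members and gene lists were chosen with earlier results of these data known. Named are FMOD, the members, the other tested integrins, up to 2 higher and 2 lower genes per list with the largest smallest change among genes called for all 3 hairpins, and each member's closest gene over the libraries. FN1, TLN1, TGFB1, ITGB3, LAMA3, LAMB3, COL17A1 and CD151 were named after their values were seen. Some genes of the lists are counted but not reported here by name. Alternatives were no scaling, DESeq2 size factors, no filter, the DESeq2 1.42.0 Wald test, only the groups compared, a replicate block, a prior count of 2, shares not divided by exon length, and libraries left out. Counts of the lists without shRNA3 libraries 1 and 2 were added after seeing the data.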

Additional observations from a re-analysis of the deposited data

Results flagged for a closer look

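In all, 8 differences between hairpins against the same gene were past the threshold of edgeR's quasi-likelihood test (adjusted p under 0.05), each a log2 difference between 2 groups of 3 libraries. ITGA2 was higher with shRNA1 than with shRNA2 by 1.33 (adjusted p 0.000697) and than with shRNA3 by 1.16 (adjusted p 0.0021), and all 3 libraries of shRNA1 lay above the other 6. ITGB8 was lower with shRNA1, at -0.71 against shRNA2 (adjusted p 0.0287) and -0.82 against shRNA3 (adjusted p 0.0107). The first of these was lost with no scaling (adjusted p 0.0775), with no filter (0.0688) and without any 1 of 7 libraries, NC 1 and 2, shRNA1 1 and 2 and shRNA2 1, 2 and 3 (0.0502 to 0.113), and the other with no scaling (0.0752). With only shRNA1 and shRNA3 fitted, all 5 differences between them were lost (0.117 to 0.152).

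ITGA3 and ITGB4 differed between shRNA1 and shRNA3, at -1.29 (adjusted p 0.0243) and -1.89 (adjusted p 0.0068). ITGB6 was at -2.69 for shRNA1 against shRNA3 (adjusted p 0.00891) and at -3.46 for shRNA2 against shRNA3 (adjusted p 0.0266), on 12 to 23 counts per library with shRNA3 and 0 to 4 with the others. Libraries 1 and 2 of shRNA3 held 3.40, 3.04 and 2.35 times the ITGA3, ITGB4 and ITGB6 level of its library 3. Without them these 4 differences rested on library 3 alone and were 0.07, -0.67, -1.82 and -2.59, in the order given. The ITGB6 difference between shRNA2 and shRNA3 was lost without any 1 NC library (0.0531 to 0.0553), any 1 shRNA2 library (0.083 to 0.128) or shRNA3 library 1 (0.0913) or 2 (0.0884), and with only these groups (0.206). The ITGA3 difference was lost without library 1 or 2 of shRNA1 or of shRNA3 (0.0808 to 0.0934).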

How the results depend on the processing

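Of 1389 member values under the alternatives, 1266 kept their direction and side of the threshold, 41 were no longer past it, 42 newly passed and 40 changed sign. Against NC the 15 sign changes were in ITGA6, ITGB1 and ITGB4, none of them past the threshold in the comparison concerned. The cause of these changes was not tested. ITGB6 and ITGAV kept their calls against NC for all 3 hairpins in every alternative run. Depth limits ITGB6 in shRNA1 and shRNA2, where 0 to 4 counts per library fix its fold only within the intervals given. With no scaling the median of all genes shifted by -0.09, -0.13 and -0.32 in log2 for the 3 hairpins.

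Sign changes against NC for shRNA1 were ITGB1 at 0.0129 with no filter and 0.00162 without shRNA3 libraries 1 and 2. With 1 library left out, the shRNA1 values ranged from -0.27 to 0.17 for ITGB1, from -0.38 to 0.0714 for ITGB4 and from -0.00540 to 0.35 for ITGA6. For shRNA3, ITGA6 was at -0.14 with no scaling and -0.0928 without libraries 1 and 2, ITGB1 at -0.28 without them, and the mean of the 3 hairpins for ITGB1 at -0.000886.

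Between hairpins, no scaling gave 0.27 for ITGA6 and 0.26 for ITGAV (shRNA1 against shRNA3), and 0.0329 for ITGA2, 0.0922 for ITGB1 and 0.0828 for ITGB8 (shRNA2 against shRNA3). No filter gave 0.00301 for ITGA6 (shRNA1 against shRNA3). Without shRNA3 libraries 1 and 2, shRNA1 against shRNA3 gave 0.0708 for ITGA3, 0.70 for ITGA5, 0.32 for ITGA6, 0.46 for ITGAV, 0.28 for ITGB1 and 0.0908 for ITGB5, and shRNA2 against shRNA3 gave 0.54 for ITGA3, 0.26 for ITGA5, 0.19 for ITGAV, 0.55 for ITGB1, 0.17 for ITGB4 and 0.27 for ITGB5. With 1 library left out, shRNA1 against shRNA3 ranged from -0.23 to 0.12 for ITGA6 and from -0.37 to 0.14 for ITGAV, and shRNA1 against shRNA2 from -0.0784 to 0.43 for ITGAV.

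Members called against NC were 6 to 7, 6 to 9, 7 to 9 and 7 to 10 (mean of the hairpins) with 1 library left out, and 10 for shRNA2 when only its libraries and NC were fitted. Between shRNA1 and shRNA2 the count was 1 to 4 with 1 library left out, 1 with no scaling or no filter, and 4 with only these groups or without shRNA3 libraries 1 and 2. Over all genes that pair gave 559 to 7233 calls, 1420 with no filter, 3464 by DESeq2's Wald test, 6251 with only these groups and 7031 without the 2 shRNA3 libraries, against 2158. Between shRNA1 and shRNA3 it was 4 to 8 members, 2 without the 2 shRNA3 libraries, and 0 with only these groups, when 0 genes passed edgeR's test and 4295 had an unadjusted p under 0.05. Over all genes there were 1788 to 11573 calls, and 1547 without the 2 shRNA3 libraries, against 5258. Between shRNA2 and shRNA3 it was 0 to 5 members and 0 to 10800 genes (3406 to 11478 at an unadjusted p under 0.05), with 5 members and 10800 genes reached without library 3 of shRNA3. There were 596 genes with no scaling, 911 with no filter, 3 members and 3793 genes by DESeq2, 0 members and 244 genes without the 2 shRNA3 libraries, and 0 and 0 with only these groups (3186 unadjusted), against 1462.

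Replicate numbers did not pair the libraries: deviations from group means correlated at -0.00434 for the same number (18 pairs) and 0.00186 for different numbers (36 pairs). With a replicate block the members called were 7, 7, 7 and 7 against NC and 2, 5 and 1 between hairpins, and shRNA2 against shRNA3 gave 378 genes over all. The mean of the hairpins for ITGB4 was then 0.82 (adjusted p 0.0546), no longer past the threshold, and ITGA5 with shRNA2 passed at 0.90 (adjusted p 0.0268).

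With counts not divided by exon length, the β5 share was 52.6% in NC and 91.5%, 88.3% and 89.6% with the hairpins, and the β6 share 22.0% in NC, 0.104% with shRNA1 and 0.404% with shRNA3. The β8 share was then 25.5%, 8.35%, 11.7% and 9.97%. The α3 share was 76.3% in NC, 35.0% with shRNA1 and 46.5% with shRNA2, the α5 share 6.72% in NC and 18.1% with shRNA2, and the β4 share 56.7% with shRNA2.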
